A study of Homo sapiens with 4 samples.

Results

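The genes described here are those with at least 10 different transcripts in the transcript list used for LV-M100 cells. A gene symbol was a member if it had 10 or more transcripts on the main chromosomes and if their FPKM, summed over the gene and averaged over the conditions, was at least 5. FPKM counts sequenced fragments per kilobase of transcript and scaled to the number of mapped fragments. This rule used the number of transcripts and measured expression, and no difference between conditions. It was set with earlier results of these data known. Of 23194 gene symbols on the main chromosomes, 205 had at least 10 transcripts, 104 of these were below the FPKM minimum, and 101 were members, with 1380 transcripts among them. Of these 1380 transcripts, 494 were at 0 in both conditions, so a listed transcript need not be expressed in these cells.

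LV-M100 is a clonal subline of MDA-MB-231, a line of basal-like human breast cancer, so all values describe 1 clone. Cells were transfected with siRNA by Lipofectamine and RNA was taken 48 h later, depleted of ribosomal RNA and sequenced. The control condition (siControl) held 2 libraries, of which replicate 1 received the NC1 control siRNA and replicate 2 the BLOCK-iT Fluorescent Oligo. The other condition (siSNRNP40) held 2 libraries, each with a different siRNA against SNRNP40, and the deposited table pools the libraries of a condition into 1 value per transcript. No replicate error can be computed for any value below, the statistics that cuffdiff derived from the libraries were not used, and no test was run. All differences between conditions or between classes of genes are descriptions of these pooled values. Library depth is unknown because the table holds no counts.

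The siRNAs define the compared condition, and their strands are shown as ordered, 5′ to 3′, with no part in capitals.
siSNRNP40 #1: ggaauagacaaugauauc
siSNRNP40 #2: ggauuugaccgacugaua
On GRCh37 (the coordinates of hg19), siSNRNP40 #1 matched exon 5 of 10 of the SNRNP40 transcript, at chr1:31754224-31754241 on the minus strand. siSNRNP40 #2 matched exon 2, at chr1:31766067-31766084 on the same strand. Neither site occurred in the annotated transcripts of the 101 members (0 of 101). SNRNP40 itself was listed with 1 transcript, which had 40.4 FPKM with control and 6.12 FPKM after siSNRNP40, a log2 fold change of -2.72.

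A human gene gives rise to several mRNAs through alternative promoters, alternative exons and alternative polyadenylation sites. The spliceosome carries out the choice of exons, and SNRNP40 is a WD-repeat protein of its U5 small nuclear ribonucleoprotein, the particle that holds the exons together while they are joined. Fragments from short reads often match several transcripts of a gene, and cuffdiff divides them among these transcripts with a statistical model, so the value of an isoform depends on that division as well as on the amount of RNA. For isoform-rich genes the sum over isoforms and the distribution among isoforms are therefore separate measurements, and both are given here. Isoform means a transcript as listed, under its TCONS identifier, since the structures of these transcripts were not used here.

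The members had 10 to 48 transcripts, with a median of 12. There were 76 members with 10 to 14 transcripts, 25 with 15 or more and 8 with 20 or more. ATXN3, the deubiquitinase ataxin-3, had the most with 48, followed by the non-coding host of small nucleolar RNAs C17orf76-AS1 with 40, CTNND1 with 25, CSF2RA with 24, CREM with 23, ATF2 with 21, and NRG1 and YY1AP1 with 20 each. Mean summed FPKM ran from 5.01 to 756 with a median of 20.5. RPL17, a protein of the large ribosomal subunit, was the most expressed with 752 FPKM with control and 759 FPKM after siSNRNP40. The members together held 0.921% of all FPKM on the main chromosomes with control and 0.910% after siSNRNP40.

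Around the FPKM minimum, SYNRG (5.01), BANP (5.30) and PREPL (5.51) were the members with the lowest mean sums, and FAM122C (4.95), MBD1 (4.93) and FCAR (4.73) were the nearest genes left out. Around the minimum of 10 transcripts, 24 members had exactly 10, and 51 genes of sufficient expression had 9. The most expressed of those with 10 were ENSA (137), SCP2 (93.0) and PQBP1 (85.1), and of those with 9 they were PKM2 (785), EEF1D (470) and CD44 (129).

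Markers of the cell type were read in the same table. Of 10 genes of mesenchymal, basal breast cancer lines, 9 had at least 5 FPKM in the mean of the conditions, while SPARC was at 0.24 FPKM with control and 0.22 FPKM after siSNRNP40. Of 11 luminal genes, 3 had at least 5 FPKM (KRT19, CLDN4 and EPCAM), and the estrogen and progesterone receptors ESR1 and PGR were near 0. Of 7 leukocyte genes, 6 were below 1 FPKM in the mean, LYZ being the exception with 8.46 and 10.2 FPKM. The summed marker levels were 3127 and 2993 FPKM for the mesenchymal list, 221 and 202 FPKM for the luminal list and 8.95 and 10.6 FPKM for the leukocyte list, with control and after siSNRNP40.

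Although many transcripts were listed per member, few of them carried most of the FPKM. The most expressed isoform held a median of 50.9% of a member's summed FPKM with control (range 19.5% to 96.1%) and 49.2% after siSNRNP40 (range 23.1% to 96.1%). It held more than 50% in 51 members with control, in 48 after siSNRNP40 and in 38 under both. A median of 4 isoforms was enough to cover 90% of the FPKM in either condition, with 1 to 8 needed with control and 1 to 7 after siSNRNP40. Of the 1380 transcripts, 409 (29.6%) had a mean FPKM of at least 1.

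How evenly a gene spread its FPKM over isoforms was measured by Shannon entropy in bits, which is 0 for a gene with all FPKM on 1 isoform and grows as isoforms share it. Raising 2 to that power gives the effective number of equally used isoforms. The median entropy of the members was 1.87 bits with control (range 0.282 to 3.02) and 1.78 bits after siSNRNP40 (range 0.247 to 2.93), equal to 3.66 and 3.42 effective isoforms. MELK, a mitotic kinase, was the most even in the mean of the conditions: its 2 leading isoforms had 17.5 and 17.4 FPKM with control, and its entropy was 3.02 bits with control and 2.93 bits after siSNRNP40. YY1AP1 (3.02 and 2.58 bits), CTNND1 (2.86 and 2.58 bits) and the neurotrophin BDNF (2.63 and 2.70 bits) came next. DCTN1, the p150 subunit of the dynactin complex, was the most concentrated, with 96.1% of its FPKM on TCONS_00023469 in both conditions. DAG1, RPL17 and ZNF268 followed, with top shares between 81.7% and 92.8%.

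A large number of listed transcripts did not by itself mean an even distribution. ATXN3 had 48 transcripts but TCONS_00012734 held 82.7% of its FPKM with control and 81.8% after siSNRNP40, and its entropy was 1.15 bits in both. Across the 101 members the Spearman correlation of entropy with the number of transcripts was 0.23, given as a description since all genes were measured in the same libraries. Relative to the highest entropy possible for the number of transcripts, the median was 0.516 with control in members, 0.521 in genes with 5 to 9 transcripts and 0.537 in genes with 2 to 4, under the same FPKM minimum.

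**Figure D1:**
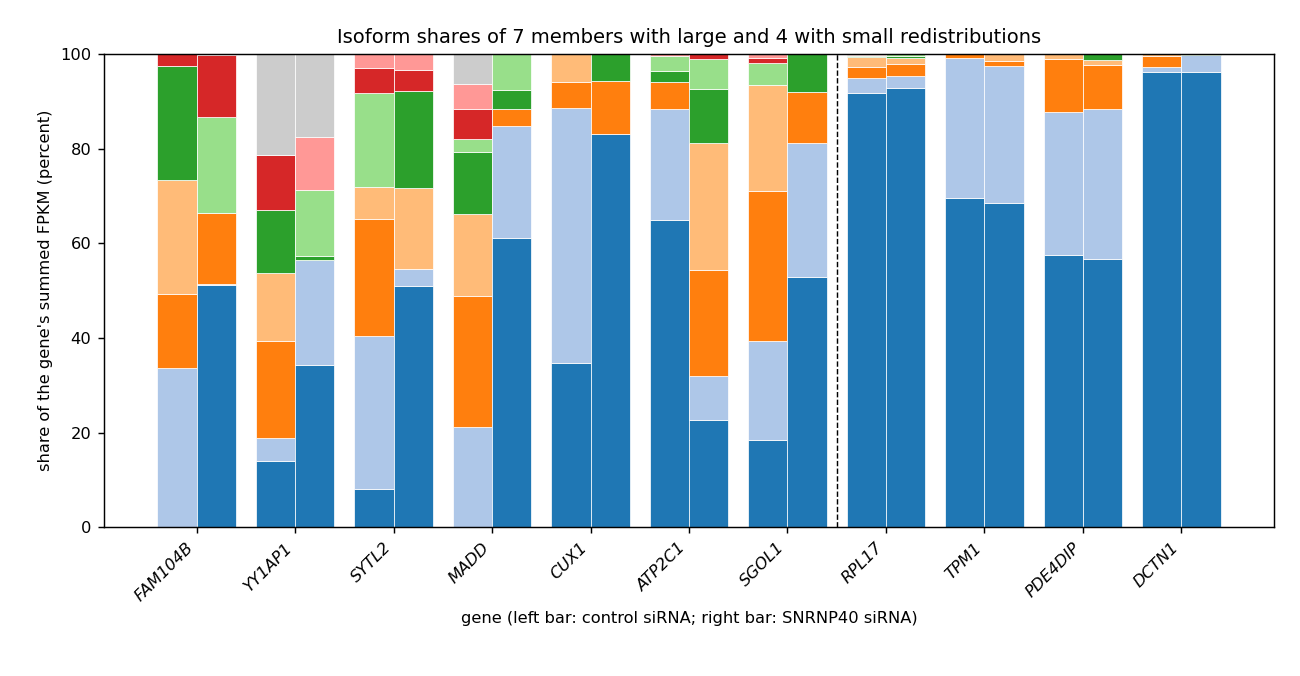
Each bar splits 100% of a gene's summed FPKM among its isoforms with control siRNA (left bar) and SNRNP40 siRNA (right bar), a colour marking the same isoform within a gene and grey those beyond the leading 8. The 7 genes left of the dashed line had redistributions of 50.04% to 82.2% and the 4 on the right 1.43% to 2.83%.

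The study depleted SNRNP40 to find transcripts that depend on it and compared them with transcripts variable among single cells. It also reported a larger fraction of unspliced pre-mRNAs after depletion. Neither analysis was repeated here, where sums and isoform distributions are compared between the conditions. The summed FPKM of most members was nearly the same in the conditions. In RNA from a whole culture, a lower value cannot be told apart between less RNA per cell and fewer cells that express the gene. In absolute terms the sums differed by a median of 0.12 on the log2 scale, and 90 members were within 0.5 and 75 within 0.25. The median was 0.15 over all 8559 genes with a mean sum of at least 5 and a sum above 0 in both conditions. A sum past a 2-fold change (an absolute log2 fold change above 1) occurred in 1 of 101 members (0.990%), beside 0.572% of all such genes. That member was PTBP3, an RNA-binding splicing regulator of the polypyrimidine tract-binding family, with 15.1 FPKM with control and 6.02 FPKM after siSNRNP40 (log2 fold change -1.32).

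The distribution among isoforms differed more than the sums. Redistribution, the percentage of a gene's FPKM that sat on other isoforms after siSNRNP40 than with control, is 0 when all shares are equal and 100 when no isoform is used in both. Its median over the members was 18.3% (range 1.43% to 87.0%), beside 6.65% over the 3783 genes with 2 or more transcripts and the same FPKM minimum. It reached at least 25% in 34 of 101 members (33.7%), beside 11.5% of those genes. It was at least 50% in 8 members and under 10% in 22.

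The most expressed isoform was a different transcript after siSNRNP40 than with control in 25 of 101 members (24.8%), beside 11.2% of the 3783 genes. In 23 of these 25 the sum differed by less than 0.5 on the log2 scale. In 6 of the 25 the leading isoform exceeded the second by at least 1.5 times in each condition. Among these were CUX1, TEAD2, SLC11A2, RNF146 and ALG13. The second isoform was not always the one leading in the other condition, so the remaining differences need not be exchanges between isoforms of similar level. In 8 of the 25 the isoform leading with control had less than 0.5 FPKM after siSNRNP40, and in 1, CUX1, it was listed at 0.

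Fold changes of single isoforms were computed as siSNRNP40 over control, for those isoforms that averaged 1 FPKM or more and were above 0 in both conditions. Of 390 such isoforms, 118 (30.3%) were past 2-fold, beside 10.5% of all 16691 transcripts that met the same rule. That background includes genes with 1 listed transcript, which have no other isoform. Among genes with a mean sum of at least 5 FPKM, 0.712% of 4776 such transcripts were past 2-fold. The shares were 13.9% in genes with 2 to 4 transcripts and 22.9% in genes with 5 to 9. After siSNRNP40, 62 member isoforms were higher (15.9%, beside 5.5% of all transcripts) and 56 lower (14.4%, beside 5.04%), so neither direction prevailed. The isoform on the low side was under 1 FPKM in 61 of the 118 and under 0.1 FPKM in 20. With at least 1 FPKM required in both conditions, 57 of 318 were past 2-fold (17.9%, beside 5.54% of all 15376 such transcripts), 33 higher and 24 lower. Under this setting the share was 13.2% in genes with 5 to 9 transcripts and 8.11% in genes with 2 to 4. A further 19 isoforms of 15 members averaged 1 FPKM or more but were listed at 0 in 1 condition, 13 after siSNRNP40 and 6 with control, and have no fold change.

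Isoforms of the same gene were often on opposite sides. In 21 of 101 members (20.8%) at least 1 isoform was higher and at least 1 lower past 2-fold while the sum differed by less than 0.5 on the log2 scale, beside 5.15% of the 3783 genes. The sums of these 21 differed by a median of 0.10 on that scale, and 11 of them also had a different leading isoform.

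**Figure D2:**
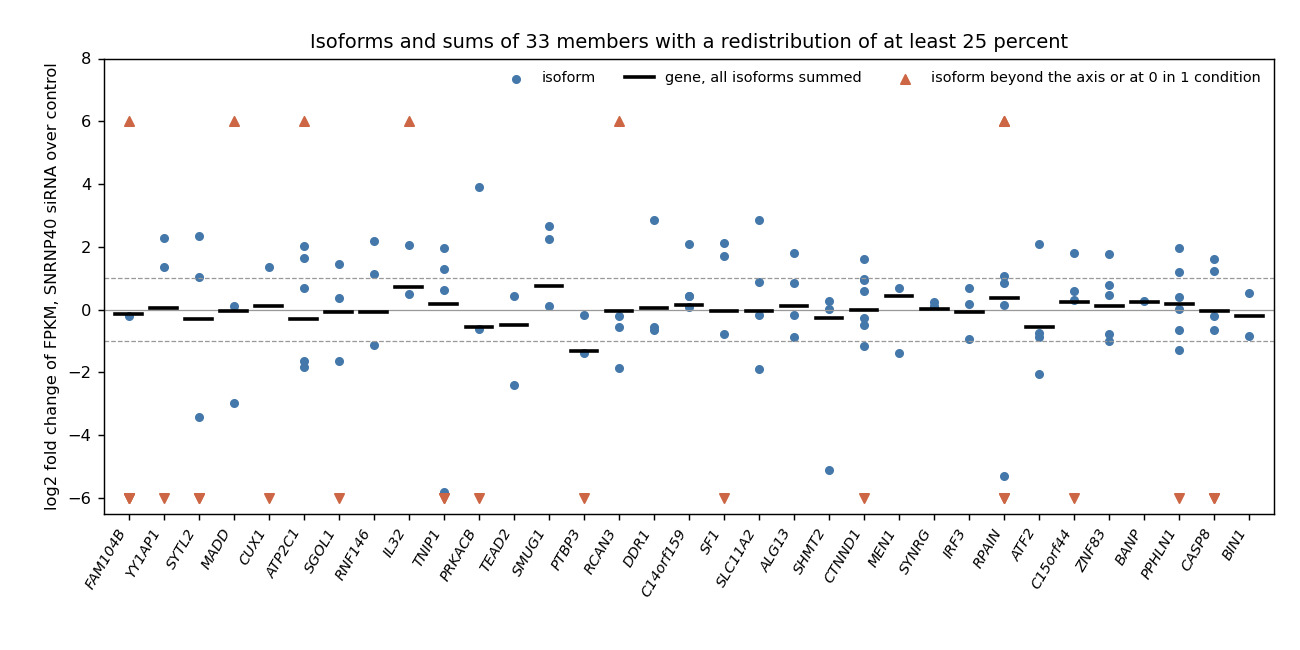
Log2 fold change of FPKM, siSNRNP40 over control, for the isoforms averaging 1 FPKM or more (points) and for the sum over all isoforms (black lines) in 33 members with a redistribution of at least 25%. Triangles mark isoforms past 6 on this scale or at 0 in 1 condition and dashed lines mark 2-fold; the sums lie between -1.32 and 0.75 while isoforms reach past 2-fold on either side.

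The size of the isoform differences went with expression level. Across the 101 members the Spearman correlation of redistribution with mean summed FPKM was -0.50, and with the number of transcripts it was -0.041, again as descriptions across genes of the same libraries. Median redistribution was 28.6% in the 20 members with a mean sum of 5 to 10 FPKM, 22.6% in the 28 with 10 to 20, 20.3% in the 30 with 20 to 50 and 8.80% in the 23 with 50 or more. Members with a different leading isoform had a median mean sum of 14.2 FPKM and the others 23.7 FPKM. Only TROVE2 among the 23 members with 50 FPKM or more had a different leading isoform, and none of these 23 had a redistribution of 25% or more.

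At each expression level, genes with more transcripts had larger redistributions. Genes with 2 to 4 transcripts had medians of 8.58%, 6.61%, 4.72% and 2.71% from the lowest to the highest of these levels, and genes with 5 to 9 had 19.7%, 17.4%, 12.04% and 6.07%. The median mean sums of the classes were alike, at 18.9, 20.4 and 20.5 FPKM for 2 to 4, 5 to 9 and 10 or more transcripts. Single isoforms were also compared at matched FPKM, since a gene's FPKM is divided among more isoforms when more are listed. The classes were alike at the lowest level, and at the levels above it the share was highest in members. At a mean isoform FPKM of 1 to 2, 45.9% of member isoforms were past 2-fold, beside 47.1% in genes with 5 to 9 and 45.1% in genes with 2 to 4 transcripts. At 2 to 5 FPKM the shares were 40.0%, 31.6% and 26.1%, and at 5 to 20 FPKM they were 18.98%, 11.6% and 7.13%. At 20 FPKM or more they were 2.5%, 2.17% and 0.952%, with 1 member isoform of 40 past 2-fold. No test across genes was made of these differences between classes, and the part that the division of fragments among overlapping transcripts plays in them was not tested.

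**Figure D3:**
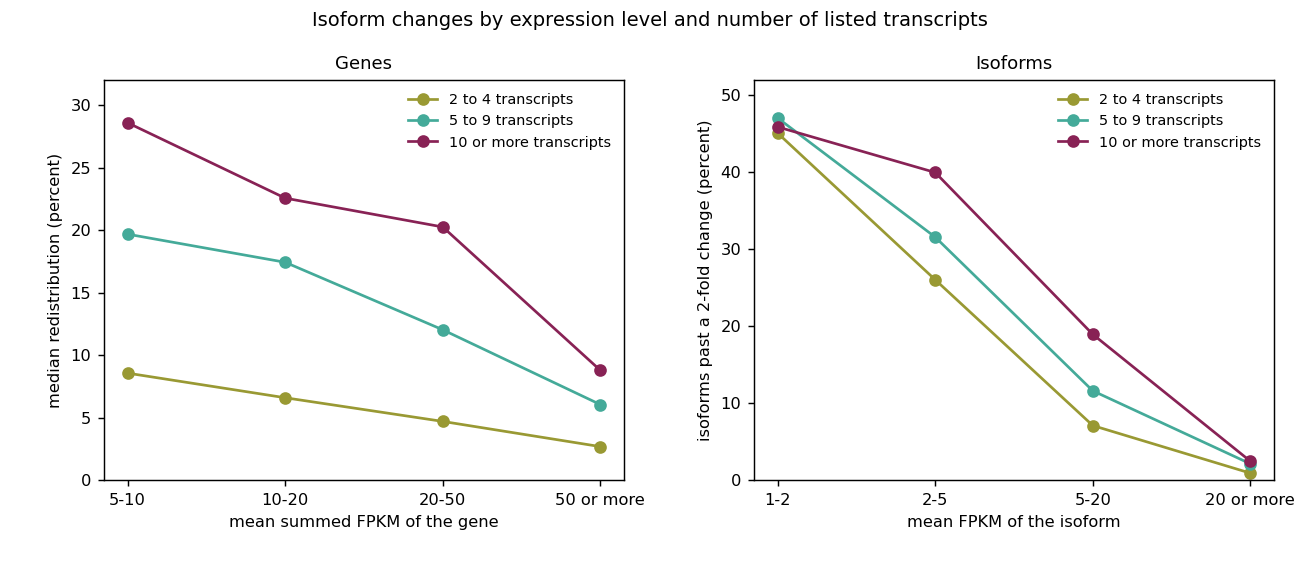
For genes with 2 to 4, 5 to 9 and 10 or more transcripts, the left panel plots median redistribution (percent) by mean summed FPKM and the right panel the percentage of isoforms past 2-fold by the mean FPKM of the isoform. In the genes with 10 or more transcripts the median redistribution goes from 28.6% to 8.80%, and the percentage of isoforms past 2-fold from 45.9% to 2.5%.

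Entropy was lower after siSNRNP40 in 62 members and higher in 39. The lower share was 61.4%, beside 52.3% of the 3783 genes, and the median difference was -0.060 bits. The difference was at least 0.5 bits in 17 members, 10 lower and 7 higher. The lower entropies went with transcripts listed at 0: 583 of the 1380 member transcripts (42.2%) were listed at 0 with control and 667 (48.3%) after siSNRNP40, 494 of them in both. Over all transcripts on the main chromosomes the shares at 0 were 29.1% with control and 33.8% after siSNRNP40. More isoforms were at 0 after siSNRNP40 than with control in 53 members, and 40 of these had the lower entropy after siSNRNP40. Fewer were at 0 in 21 members, of which 7 had the lower entropy, and 15 of the 27 members with equal numbers had it. When only isoforms above 0 in both conditions entered the shares, entropy was lower in 53 members and higher in 48, with a median difference of -0.0093 bits. Whether the depth of the libraries differed between conditions cannot be told from the table, and its part in the zeros was not tested.

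The members with the largest entropy differences were on both sides. The Golgi calcium and manganese pump ATP2C1 went from 1.45 bits with control to 2.48 bits after siSNRNP40, the branch point-binding splicing factor SF1 from 1.26 to 2.10 bits, the collagen receptor kinase DDR1 from 1.71 to 2.37 bits, and ABI1, a subunit of the WAVE actin regulatory complex, from 1.75 to 2.35 bits. In the other direction, the Rab exchange factor and death domain protein MADD went from 2.76 to 1.57 bits, PTBP3 from 1.76 to 0.91 bits, the A20-binding inhibitor of NF-κB signalling TNIP1 from 2.55 to 1.76 bits, and the mitochondrial serine hydroxymethyltransferase SHMT2 from 1.72 to 1.04 bits.

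**Figure D4:**
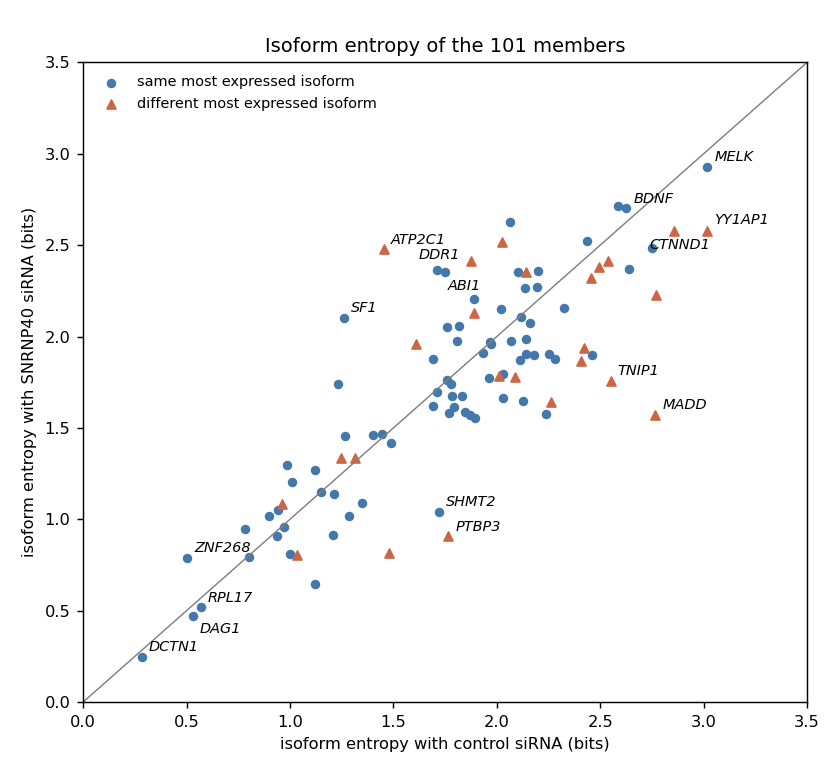
Isoform entropy in bits of the 101 members with control siRNA (x axis) and SNRNP40 siRNA (y axis), with the line of equality. Triangles mark the 25 members whose most expressed isoform was a different transcript; 62 points lie below the line and 39 above it, and DCTN1 is the lowest in both conditions.

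The members are described next by the known roles of their products, in groups drawn up after the members were known, and where a pair of FPKM values or shares has no label, control comes before siSNRNP40. Transcription and chromatin formed the largest group, with 21 members, a median redistribution of 22.9%, 7 with a different leading isoform and 10 with a redistribution of at least 25%. Of their 74 isoforms with a fold change, 11 were higher and 15 lower past 2-fold. The background to these and the following group counts is that 33.7% of all members and 11.5% of the 3783 genes had a redistribution of at least 25%, that 24.8% and 11.2% had a different leading isoform, and that 5.5% of all transcripts were higher and 5.04% lower past 2-fold.

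YY1AP1, a partner of the transcription factor YY1 (chr1:155629234-155658791, minus strand), had a redistribution of 79.6% spread over several isoforms. TCONS_00003612, TCONS_00003610 and TCONS_00003619 had 2.72, 1.93 and 1.77 FPKM with control and 0.00405, 0.00879 and 0.108 FPKM after siSNRNP40. Of these, TCONS_00003612 and TCONS_00003619 carried the status NOTEST, under which cuffdiff made no test. This status is not given for other isoforms named here. TCONS_00003604, TCONS_00003616 and TCONS_00003605 had 1.87, 0.628 and 0.00153 FPKM with control and 4.77, 3.08 and 1.92 FPKM after siSNRNP40. The YY1AP1 sum was 13.3 and 13.9 FPKM. The homeobox factor CUX1 (chr7:101459184-101927250, plus strand) showed an exchange between a pair of transcripts. Its TCONS_00037843 had 4.67 FPKM with control and was listed at 0 after siSNRNP40, and its TCONS_00037844 had 3.01 and 7.72 FPKM, so that the pair summed to 7.68 and 7.72 FPKM.

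Of the YAP-binding factor TEAD2, TCONS_00021346 held 61.3% of the FPKM with control and 16.3% after siSNRNP40, and TCONS_00021345 held 38.7% and 73.7%. Its levels were low: the TEAD2 sum was 6.68 and 4.70 FPKM. Different leading isoforms were also listed for the interferon regulatory factor IRF3 (redistribution 30.5%), the nuclear receptor coactivator NCOA7 (21.1%) and periphilin, PPHLN1 (26.6%). In PPHLN1, TCONS_00008984 had 3.71 and 14.3 FPKM and TCONS_00008988 had 13.8 and 8.77 FPKM.

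The CREB family factor ATF2 kept its leading isoform, but TCONS_00023959 had 1.43 FPKM with control and 6.03 FPKM after siSNRNP40 while TCONS_00023961 had 6.39 and 1.54 FPKM. The ATF2 sum was 29.2 and 19.8 FPKM, one of the lower sums after siSNRNP40 among members (log2 fold change -0.56). The related factor CREM had 23 transcripts and the same leading isoform, with 7.81 and 9.94 FPKM. Menin (MEN1, 30.8%), ZNF83 (27.0%) and BANP (26.7%) also had a redistribution of at least 25%. The 3 MEN1 isoforms with the most FPKM carried the status LOWDATA, by which cuffdiff marks loci too complex or too shallow to test, as did the leading isoform of SMARCA4. The BRG1 chromatin remodeller SMARCA4 had 21.3%, and its leading isoform went from 34.2% to 53.8% of its FPKM. FOXP1 (22.9%), MECOM (18.96%), MIER1 (18.7%), ZNF268 (18.2%), CREM (17.3%), HDAC9 (13.0%), the glucocorticoid receptor NR3C1 (12.05%), MORF4L2 (11.6%) and SP100 (8.64%) had smaller values. MORF4L2, a subunit of the NuA4 acetyltransferase complex and the most expressed of the group, had isoforms on opposite sides at low share: TCONS_00043975 had 4.61 and 0.0709 FPKM and TCONS_00043974 had 0.457 and 8.32 FPKM, beside 138 and 126 FPKM for its leading isoform.

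RNA processing and translation held 11 members with a median redistribution of 13.1%. Of 50 isoforms with a fold change, 4 were higher and 10 lower past 2-fold. In PTBP3 (chr9:114979996-115095944, minus strand), whose sum was past 2-fold, the lower sum lay mainly on 1 isoform. TCONS_00041996 had 6.21 FPKM with control and 0.00271 FPKM after siSNRNP40, whereas TCONS_00041994 had 5.42 and 4.80 FPKM, which raised its share from 36.0% to 79.7%. In SF1 (chr11:64532078-64546258, minus strand) the leading isoform TCONS_00008060 had 15.7 and 9.22 FPKM, and TCONS_00008057 and TCONS_00008061 had 0.987 and 0.865 FPKM with control and 4.26 and 2.84 FPKM after siSNRNP40. SF1 recognises the branch point before the U2 particle binds, and its sum was 20.6 and 19.9 FPKM.

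PQBP1, a polyglutamine-binding protein with a role in splicing, had a constant leading isoform (41.8 and 41.6 FPKM) beside an exchange between TCONS_00042636, with 22.2 and 10.3 FPKM, and TCONS_00042641, with 3.44 and 14.2 FPKM. The muscleblind splicing regulator MBNL1 had a redistribution of 8.80%, with TCONS_00027911, also of status LOWDATA, at 12.5 and 5.22 FPKM. Further values in the group were those of C17orf76-AS1 (14.6%), the kinase CDK11B (14.4%), the double-stranded RNA-binding protein STAU2 (13.1%), SMN2 (12.9%), the Ro60 autoantigen TROVE2 (6.53%) and RPL17 (1.43%). RPL17 kept TCONS_00018869 at 691 and 705 FPKM. For TROVE2 the different leading isoforms were nearly tied, at 39.9 and 35.2 FPKM with control and 33.2 and 35.5 FPKM after siSNRNP40.

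Adhesion, cytoskeleton and polarity held 14 members with a median redistribution of 12.04%, and 1 of these reached 25%. Of 55 isoforms with a fold change, 8 were higher and 2 lower past 2-fold, beside 15.9% higher and 14.4% lower over the isoforms of all members; no difference in direction between groups was tested. CTNND1 (chr11:57520715-57587018, plus strand) encodes p120-catenin, which stabilises cadherins at cell junctions and whose long and short forms mark mesenchymal and epithelial cells. Its redistribution was 32.3%: TCONS_00006629 had 11.7 and 8.38 FPKM, TCONS_00006622 had 5.61 and 2.52 FPKM, and TCONS_00006621 and TCONS_00006628 had 4.31 and 4.34 FPKM with control and 8.52 and 8.39 FPKM after siSNRNP40. The CTNND1 sum was 34.3 FPKM in both conditions. CTNND1 and BCAR1 were the members of this group with a different leading isoform.

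The smallest redistributions of the group were those of TPM1, PDE4DIP, DCTN1 and DAG1. The actin filament protein tropomyosin, TPM1, had 1.62%, with TCONS_00013250 at 55.5 and 53.4 FPKM and TCONS_00013252 at 23.5 and 22.5 FPKM. The values were 2.78% for the centrosomal PDE4DIP, 2.83% for DCTN1 and 2.94% for dystroglycan, DAG1. In ABI1 the redistribution was 20.1%, and TCONS_00005366 and TCONS_00005372 had 0.627 and 0.0524 FPKM with control and 3.94 and 3.21 FPKM after siSNRNP40. Between these lay MID1 (21.2%), the transmembrane collagen COL13A1 (18.2%), ODF2 (14.1%), PDLIM5 (13.1%), the adaptor p130Cas encoded by BCAR1 (12.4%), the polarity protein PARD3 (11.7%), ERBB2IP (11.5%) and EPB41L2 (7.78%).

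Receptors, ligands and signalling proteins were 15 members with a median redistribution of 16.99%, of which 3 reached 25%. PRKACB, a catalytic subunit of protein kinase A, had 45.8%: TCONS_00000904 had 3.28 FPKM with control and was listed at 0 after siSNRNP40, and TCONS_00000907 had 0.19 and 2.91 FPKM. The calcineurin regulator RCAN3 had 43.2%, with TCONS_00000357 at 3.93 and 1.08 FPKM and TCONS_00000358 listed at 0 and at 3.20 FPKM. DDR1 had 41.6%, with its leading isoform TCONS_00033037 at 7.15 and 4.84 FPKM and TCONS_00033032 at 0.381 and 2.75 FPKM. Both of these RCAN3 transcripts and the leading isoform of DDR1 carried the status LOWDATA.

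FGFR1, a fibroblast growth factor receptor whose splicing differs between epithelial and mesenchymal cells, had 24.6% and a sum of 24.6 and 24.8 FPKM. Its isoforms TCONS_00040081 and TCONS_00040085 had 2.34 and 2.09 FPKM with control and 5.26 and 4.82 FPKM after siSNRNP40, and TCONS_00040091 had 9.15 and 5.84 FPKM. FGFR1 had a different leading isoform: TCONS_00040091 led with control, and TCONS_00040083, with 8.68 and 7.02 FPKM, led after siSNRNP40. ENSA, an inhibitor of the phosphatase PP2A in mitosis, held the member isoform past 2-fold with at least 20 FPKM: TCONS_00003401 had 21.8 FPKM with control and 59.7 FPKM after siSNRNP40 (log2 fold change 1.46). The ENSA sum was 113 and 161 FPKM, and its leading isoform TCONS_00003394 had 63.3 and 69.2 FPKM. Of the amyloid precursor APP, TCONS_00025803 had 20.3 and 8.19 FPKM and TCONS_00025800 had 33.0 and 44.1 FPKM, with a sum of 124 and 123 FPKM. Its relative APLP2 had a redistribution of 3.90%, and its leading isoform had 121 and 120.2 FPKM.

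NREP (22.3%) had a different leading isoform, as did RCAN3 and FGFR1. IP6K2 (19.8%), CSF2RA (16.99%), BDNF (16.1%), the ABL family kinase ABL2 (14.9%), SERPINA1 (7.80%), the ErbB ligand NRG1 (7.01%) and the mTORC2 subunit MAPKAP1 (6.82%) kept theirs. NRG1 had among the highest sums after siSNRNP40 relative to control, at 7.60 and 12.1 FPKM (log2 fold change 0.68), on the same leading isoform, which had 5.88 and 9.10 FPKM.

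Membrane traffic and transport held 10 members with a median redistribution of 20.7%, 4 with a different leading isoform and 5 with at least 25%. SYTL2, a synaptotagmin-like effector of Rab27 (chr11:85405267-85522202, minus strand), had 74.2%. TCONS_00008306, TCONS_00008305 and TCONS_00008299 had 3.66, 2.79 and 2.24 FPKM with control, and 0.34, 0 and 0 FPKM after siSNRNP40. TCONS_00008304 and TCONS_00008298 had 0.921 and 0.00023 FPKM with control and 4.68 and 1.89 FPKM after siSNRNP40, and the SYTL2 sum was 11.3 and 9.19 FPKM. ATP2C1 (chr3:130569439-130735556, plus strand) had 56.7%. Its TCONS_00027783 had 19.9 and 5.61 FPKM, again with the status LOWDATA, and TCONS_00027782 had 0.00471 and 6.61 FPKM.

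The metal ion transporter SLC11A2 had 41.1%, with TCONS_00010150 at 53.7% and 14.9% of its FPKM and TCONS_00010149 at 24.7% and 46.4%. BIN1, an amphiphysin that bends membranes and is known for tissue-specific splicing, exchanged the rank of its leading isoforms: TCONS_00023738 had 27.4 and 15.3 FPKM and TCONS_00023735 had 14.6 and 21.1 FPKM. SYNRG had 30.6%, the SNARE VAMP7 16.4%, RAB34 13.3%, DEF8 11.0%, ASPH 8.90% and TPD52L2 7.97%.

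The 5 members of cell death and inflammation had a median redistribution of 46.3%, and 4 of them had at least 25%. All 5 had lower entropy after siSNRNP40. Over all members these shares were 33.7% and 61.4%, and over the 3783 genes 11.5% and 52.3%, and a group of this size drawn up after the fact shows no more than its own values. In MADD (chr11:47290712-47351582, plus strand; 68.4%), TCONS_00006542 was listed at 0 with control and at 4.77 FPKM after siSNRNP40, and TCONS_00006540 had 2.22 and 0.282 FPKM. MADD splicing is known to set whether its product promotes survival or death, and its sum here was low, at 8.03 and 7.80 FPKM. In the cytokine IL32 (49.2%), TCONS_00014411 was listed at 0 with control and at 5.02 FPKM after siSNRNP40.

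TNIP1 (chr5:150409506-150473138, minus strand; 46.3%) was expressed more highly, with a sum of 46.7 and 52.8 FPKM. TCONS_00032552 had 13.8 and 0.246 FPKM, and TCONS_00032558 and TCONS_00032554 had 7.50 and 3.22 FPKM with control and 18.3 and 12.6 FPKM after siSNRNP40. CASP8, the initiator caspase of death receptors, had 26.6%, with TCONS_00022763 at 3.22 and 9.93 FPKM and a constant leading isoform at 23.1 and 19.9 FPKM. CARD8, an inflammasome sensor, had 8.37%.

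Cell cycle and DNA repair held 6 members with a median of 26.8%. SGOL1, the shugoshin that protects centromeric cohesion (chr3:20202085-20227698, minus strand), had 50.04%: TCONS_00028299 and TCONS_00028295 had 4.81 and 3.42 FPKM with control and 1.53 and 0.00462 FPKM after siSNRNP40, and TCONS_00028302 had 2.80 and 7.64 FPKM. SMUG1, a uracil DNA glycosylase, had 44.2%, with a sum of 5.35 and 9.01 FPKM (log2 fold change 0.75) and the status LOWDATA on its leading isoform. RPAIN had 30.1%, MELK 23.5%, APTX 18.3% and RAD17 15.6%. In MELK, TCONS_00040838 had 17.4 and 7.58 FPKM and TCONS_00040841 had 5.50 and 11.6 FPKM, while the leading TCONS_00040845 had 17.5 and 18.4 FPKM.

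Of the 6 members of the ubiquitin system, the E3 ligase RNF146 had the largest redistribution, 49.6%, with TCONS_00033599 at 5.96 and 2.70 FPKM and TCONS_00033590 at 3.40 and 7.47 FPKM. The others had 20.4% (ZFAND6), 17.5% (NEDD4L), 12.7% (WDR20), 8.14% (ATXN3) and 7.37% (UBE2D3). The conjugating enzyme UBE2D3 had 155 and 119 FPKM on its leading isoform, and TCONS_00030607 had 3.80 and 13.4 FPKM.

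Metabolism and mitochondria held 8 members with a median of 18.5%. C14orf159 had 41.4%, the glycosylation enzyme ALG13 35.9% and SHMT2 34.1%. In SHMT2 the redistribution came from TCONS_00009238, with 7.75 and 0.223 FPKM, beside a leading isoform at 15.8 and 18.9 FPKM. The phospholipase PNPLA8 had 24.4%, C19orf12 12.5%, PCYT2 8.59%, the sterol carrier SCP2 5.53% and DNAJC19 5.44%. C19orf12 had the largest log2 fold change of the sum on the high side, 0.79, with 10.9 and 18.8 FPKM.

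The 5 less studied members were FAM104B (82.2%), C15orf44 (27.6%), PREPL (22.3%), C17orf62 (22.1%) and FAM156A (17.4%). FAM104B had among the largest redistributions of all members, with a sum of 9.87 and 8.94 FPKM. Its TCONS_00043779 had 3.30 and 0.00204 FPKM, TCONS_00043778 and TCONS_00043771 both had 2.37 FPKM with control and were listed at 0 after siSNRNP40, and TCONS_00043772 had 0.0112 and 4.59 FPKM.

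Gene lists drawn up from known functions were set beside the members. Members made up 0.435% of all gene symbols on the main chromosomes and 1.18% of the 8560 genes with a mean sum of at least 5 FPKM, and the lists were drawn up with isoform-rich genes in view, so their shares are descriptions. Of 91 splicing and RNA-binding regulators, 3 were members (SF1, MBNL1 and PTBP3), and of the 85 with a sum of at least 5 FPKM, 0 had a sum past 2-fold on the high side and 1, PTBP3, on the low side. For 35 genes with alternative exons in epithelial-mesenchymal transition the members were 5 (APLP2, MBNL1, ABI1, CTNND1 and FGFR1), with a median redistribution of 20.1%, beside 9.36% for the 27 list genes with 2 or more transcripts. Actin and adhesion genes gave 5 members of 75 (TPM1, ABI1, CTNND1, PDLIM5 and EPB41L2; median 13.1%), microtubule and centrosome genes 2 of 39 (DCTN1 and PDE4DIP), and kinases, phosphatases and GTPase regulators 3 of 98 (FGFR1, PRKACB and CDK11B). Transcription factors and chromatin genes gave 8 of 120 (median 19.3%), membrane traffic genes 3 of 77 (TPD52L2, BIN1 and SYTL2), and ubiquitin, proteolysis and cell death genes 5 of 73 (UBE2D3, CASP8, RNF146, NEDD4L and MADD; median 26.6%). Of 72 genes of translation, mitochondria and metabolism, and of 25 variable single-cell transcripts chosen by the study, 0 were members. In the list of transcription factors and chromatin genes 1 of 76 expressed genes had a sum past 2-fold, lower after siSNRNP40, and in the study's list it was 1 of 17, SNRNP40 itself.

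The gene structures of GENCODE 44, mapped to GRCh37, were matched by symbol for 101 of 101 members, and 100 were protein-coding, C17orf76-AS1 being the exception. Several symbols of the table have since been renamed: C14orf159 is DGLUCY, C15orf44 is INTS14, C17orf62 is CYBC1, C17orf76-AS1 is SNHG29, ERBB2IP is ERBIN, SGOL1 is SGO1 and TROVE2 is RO60. Members spanned a median of 67.2 kb, beside 47.0 kb for genes with 5 to 9 and 36.8 kb for genes with 2 to 4 transcripts in the table. Their canonical transcripts had a median of 12 exons and 3697 bases, beside 11 exons and 3606 bases, and 10 exons and 3190 bases. GC content was alike at 45.1%, 46.4% and 46.0%. Annotated transcripts in GENCODE numbered 23, 16 and 10 in the median, in the same order as the listed transcripts. Whether the listed transcripts were taken in part from an annotation was not examined, so these counts may not be independent.

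Some members cannot be separated from near-identical copies. CSF2RA and VAMP7 lie in the pseudoautosomal regions, and the table lists each of their transcripts once on X and once on Y with the same value (largest difference between copies 0.0457 FPKM for CSF2RA and 0 for VAMP7). On 1 copy alone CSF2RA had 12 transcripts and entropies of 1.59 and 1.72 bits instead of 2.59 and 2.72, and VAMP7 had 5 transcripts and 1.06 and 1.63 bits instead of 2.06 and 2.63. SMN2 was listed at 2 loci of chromosome 5 with 6 transcripts each, and FAM156A at 2 loci of X with 14 and 2. VAMP7 and SMN2 would therefore not reach 10 transcripts on 1 copy. The SMN2 locus at chr5:69345350-69373422 overlaps the GENCODE position of that gene, and the locus at chr5:70220768-70248842 lies outside it. They had 28.2 and 32.6 FPKM with control, and the values given for SMN2 combine them. Without the 4 members at more than 1 locus, the share with a different leading isoform was 25.8% of 97. CDK11B and RPL17 have close paralogs or processed copies, DDR1 has 43 further transcripts on alternative contigs, all listed at 0, and C17orf76-AS1 and BDNF overlap genes on the opposite strand. Their values may therefore be less certain, which was not tested. In 25 members at least 1 transcript carried the status LOWDATA, 75 transcripts in all. Of the 76 members without such a transcript, 28.9% had a different leading isoform.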

How the data were processed

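The 4 libraries came from LV-M100 cells, 2 per condition, and were examined through the authors' table of transcripts. Per the study's methods, adapters were removed with cutadapt 1.2.1 and TopHat 2.0.8 aligned the reads to hg19. Cufflinks and cuffmerge gave expression values and consolidated results over samples, and cuffdiff 2.0.2 compared the conditions. The deposited values are FPKM, which the authors scaled by transcript length and by mapped fragments, 1 per transcript and condition over the pooled libraries. The table also holds the authors' log2 fold changes, test statistics, p-values and q-values, which were not used.

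Transcripts were grouped by gene symbol on chromosomes 1 to 22, X, Y and M. Shares, entropies, redistribution and fold changes were computed from FPKM without a pseudocount in Python 3.11.15 (numpy 2.4.6, pandas 2.3.3), and tested on simulated data. With 1 pooled value per condition, no test of replicates could be made from these values, and the authors' own statistics were left aside. Depth is unknown, and the precision of a value cannot be given. Genes and isoforms are named by rank (most transcripts, highest sums, largest and smallest redistributions, largest entropy differences, highest and lowest entropies, nearest to the thresholds) and by list, and the remaining members are given by role with values chosen after they were seen. Members and lists were chosen with earlier results of these data known. Gene coordinates and siRNA sites are from GRCh37 with GENCODE 44. Alternatives changed the minima, the pseudocount, the measures and the loci. Values for some single members are not reported here, although these members are included in the counts and medians.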

Additional observations from a re-analysis of the deposited data

How the results depend on the processing

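No paired analysis was possible because the table merges each condition's libraries, and for the same reason no replicate could be left out. Values were counted as moved when a share or redistribution differed by 5 points, an entropy by 0.1 bits or a count by more than 1.5 times. Values on another scale (Jensen-Shannon divergence, inverse Simpson index, entropy divided by its maximum) were counted as moved without a limit. Of the recomputed values, 52 counted as unchanged, 30 as moved and 1 as reversed. Some of the unchanged values could not change. A pseudocount added to every isoform leaves the leading isoform the same, so the number of different leading isoforms under it is no test of that number. The limit of 0.1 bits is wider than the median entropy difference itself (-0.060 bits), so remaining within it says little about that difference. Over isoforms averaging 1 FPKM or more that difference was -0.000767 bits. The reversal was the median entropy difference, which was 0.00615 bits at a minimum of 15 transcripts. For the moved values below, a changed count mostly follows from the number of genes or isoforms admitted, and otherwise the cause was not tested. A minimum of 8 transcripts gave 222 members, a median entropy of 1.77 bits, 47 different leading isoforms, 222 isoforms past 2-fold and 2 sums past 2-fold. A minimum of 12 gave 64 members and 0 sums past 2-fold. A minimum of 15 gave 25 members, a median top share of 45.4%, 6 different leading isoforms, 25 isoforms past 2-fold and 0 sums. A minimum mean sum of 20 FPKM gave 53 members, 8 different leading isoforms (15.1%, against 24.8% as reported), 73 isoforms and 0 sums past 2-fold. Median entropy was 2.13 bits with a pseudocount of 0.1 FPKM, 2.97 bits with 1 FPKM, 1.43 bits over isoforms averaging 1 FPKM or more and 1.72 bits over isoforms above 0 in both conditions. The median top share was 32.8% with a pseudocount of 1 FPKM and 56.5% over isoforms with a mean of at least 1. Median redistribution was 11.2% with a pseudocount of 1 FPKM, and on the scale of Jensen-Shannon divergence the median was 0.0624 bits. The median entropy difference was -0.0162 when divided by the maximum entropy and -0.066 as an inverse Simpson index. Different leading isoforms numbered 6 where the leader exceeded the second by at least 1.5 times. Isoforms past 2-fold numbered 27 among isoforms averaging 5 FPKM or more, 245 at 0.1 and 57 at 1 FPKM in both conditions. The last setting, the isoforms above 0 in both conditions and the omission of LOWDATA members were chosen after seeing the data.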
